A study of Mus musculus with 2 samples.

Results

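The genes described here encode the nuclear subunits of oxidative phosphorylation, sorted by complex, together with assembly factors that carry the same name stems. They were taken by symbol: every probe set assigned to exactly 1 gene whose symbol begins with Nduf, Sdha to Sdhd, Uqcr, Cox4 to Cox8 or Atp5. This gave 185 probe sets for 94 genes, of 18193 genes in all, namely 34 genes of complex I, 4 of complex II, 8 of complex III, 19 of complex IV, 17 of complex V and 12 assembly factors (Ndufaf1 to Ndufaf8 and Sdhaf1 to Sdhaf4). Ndufa4 and its paralog Ndufa4l2 were placed with complex IV, where the Ndufa4 protein is now known to sit. The samples were primary osteoblasts, the bone-forming cells, cultured from the calvaria (skull vault) of 7-day-old CD1 mice. Both cultures were starved in medium with albumin in place of serum for 24 h. One then received the vehicle DMSO for 24 h, and the other 2 µM PP1, an inhibitor of c-Src and related tyrosine kinases, for 24 h. Whether a culture pooled several animals is not stated in the labels. Each condition is 1 Affymetrix array, so there is no replicate, no test between the conditions and no p-value, and every difference below describes these 2 arrays.

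Oxidative phosphorylation takes place in the inner mitochondrial membrane. Complex I (NADH dehydrogenase) and complex II (succinate dehydrogenase) pass electrons to ubiquinone, complex III passes them on to cytochrome c, and complex IV (cytochrome c oxidase) hands them to oxygen. Complexes I, III and IV pump protons, and complex V (ATP synthase) uses the gradient to make ATP. Most subunits are encoded in the nucleus and a few in mitochondrial DNA. Assembly factors help to build the complexes and are not part of the finished enzyme. In osteoblasts this system works beside a high rate of glycolysis.

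Values are linear array signals, with the PP1 array multiplied by 1.68 so that both arrays have the same mean after trimming 2% at each end. Signals under a floor of 31.7, the median of all probe sets, were set to the floor, and the log2 ratio is PP1 minus DMSO. Where a gene had several probe sets, the one brightest on average over both arrays (on the log2 scale) stands for it, and the gene counts as measured when this one exceeds the floor on at least 1 array, as for 90 of the 94 members and 12133 of all genes. Cox7a1, Cox7b2, Cox8b and Ndufb4 were under the floor on both arrays. The only error that could be computed is the spread between probe sets of the same gene. The SD of their log2 ratios was 0.41 over 4745 genes and 0.33 over the 46 members for which several probe sets exceeded it on each array. A log2 ratio of 0.58 is a 1.5-fold difference, so a single member near that size lies within 2 such SDs. As deposited, the PP1 array was dimmer for most genes: without scaling, the median log2 ratio of all genes moved to -0.71. The 18 bacterial control probe sets did not share this, with a median log2 ratio of 0.09 as deposited. Each direction given here is thus set against the array as a whole. Of the osteoblast markers, Col1a1 (7558 with DMSO, 9931 with PP1), Sparc (8747 and 11867) and Alpl (188 and 242) were present, while Bglap, Spp1 and Runx2 were not analysed here. All 11 macrophage markers were measured too, with summed signals of 14026 (DMSO, range 38.1 to 5742) and 16591 (PP1, range 49.5 to 6297). The brightest were Lyz1 (5742 and 6158) and Lyz2 (4892 and 6297). Of the 11, 7 had a log2 ratio above 0 and 4 below, from Mrc1 (1.11) to C1qb (-0.76), beside 51.1% of all genes above 0. Of the 7 measured osteoblast markers, 4 had a ratio above 0 and 3 below. The lower ones were Ibsp (159 and 37.7), Sp7 (71.6 and 53.3) and Postn (4536 and 4176). The part of these cell types in the mitochondrial signals was not tested. In such bulk RNA, fewer cells of a type and less RNA per cell cannot be told apart.

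The subunit genes differed little between the PP1 and the DMSO culture, and the assembly factors differed more. Of the 78 measured subunit genes, 73 (93.6%) lay within 1.5-fold, against 82.0% of all measured genes. The gap was smaller among genes of like signal. Of 1041 genes with a mean signal in the subunits' interquartile range, 4.61% were higher and 6.92% lower by 1.5-fold or more, beside 3.85% and 2.56% of the subunits. At 1.5-fold or more, 3 subunits were higher with PP1 (Sdhc, Cox6b2 and Cox4i2) and 2 were lower (Ndufv1 and Ndufb1), against 10.6% higher and 7.38% lower among all genes. Of the 12 assembly factors, 0 were higher and 4 were lower at that size: Ndufaf4, Sdhaf1, Ndufaf6 and Ndufaf7. With the floor at the 75th percentile of signal, 2 were lower (Ndufaf4 and Sdhaf1). Ndufaf7 then stood at -0.14 relative to the median of all genes, and Ndufaf6 was no longer measured. Without probe sets marked as shared in their identifiers, 3 were lower, because Ndufaf7 has no other. With the floor in place, no member reached 2-fold in either direction, a size reached by 3.02% of all genes upward and 1.55% downward. Cox4i2 has only a lower bound of 1.91-fold, and without a floor it was past 2-fold (log2 ratio 1.65 relative to the median of all genes). The median log2 ratio was -0.03 for the subunits and -0.20 for the assembly factors, beside 0.01 for all measured genes.

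**Figure D1:**
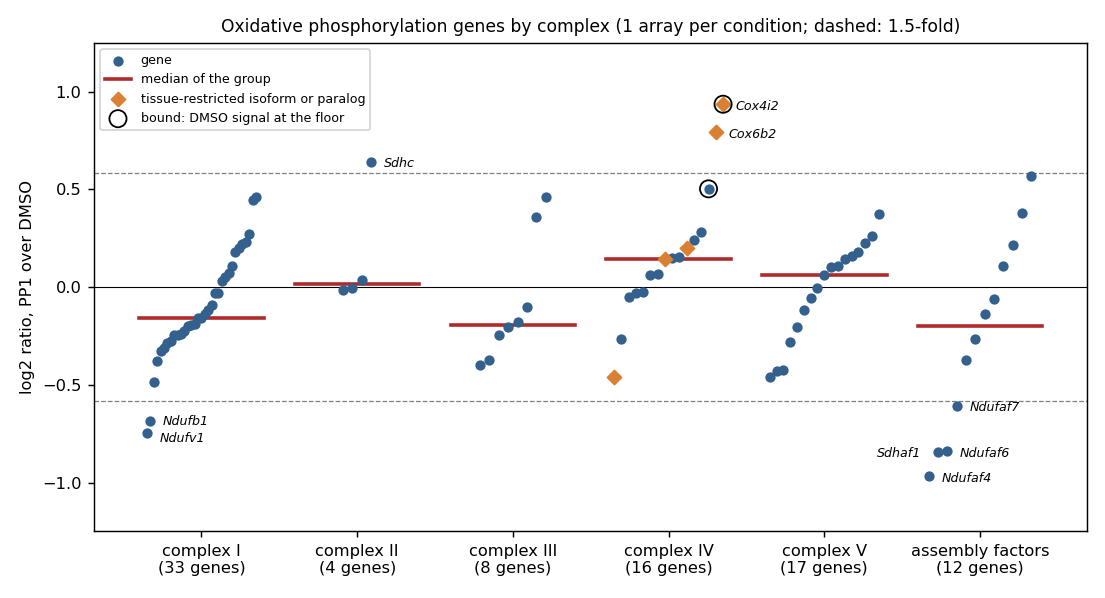
Log2 ratio of PP1 over DMSO (vertical axis) for each measured gene, grouped by complex along the horizontal axis, with 1 point per gene, a red bar at the median, diamonds for tissue-restricted forms and a ring where the DMSO signal is at the floor. Most subunits lie between the dashed 1.5-fold lines, and the assembly factors spread from -0.97 to 0.57.

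By complex, the medians ran from -0.19 for complex III (8 genes) and -0.16 for complex I (33 genes) through 0.01 for complex II (4 genes) and 0.06 for complex V (17 genes) to 0.15 for complex IV (16 genes). The order depended on how probe sets were combined. Relative to all genes, complex IV was at -0.0594 counted by probe set and -0.0310 when each gene took the median of its probe sets, and complex V at -0.0492 and -0.0683. Among all measured genes with a mean signal inside the interquartile range of the complex I genes (942 to 2147), the median was -0.09. For the corresponding ranges it was -0.13 for complex II, -0.13 for complex III, -0.06 for complex IV and -0.04 for complex V. The complex IV range was wide (165 to 3933) and held 6789 of the 12133 measured genes. Without the tissue-restricted forms it was 1766 to 4297, with a median of -0.02 over 511 genes. A loess fit on signal brought complex IV to 0.00 and complex V to -0.01, while complex II stood at 0.08, complex I at -0.11, complex III at -0.14 and the assembly factors at -0.21.

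**Figure D2:**
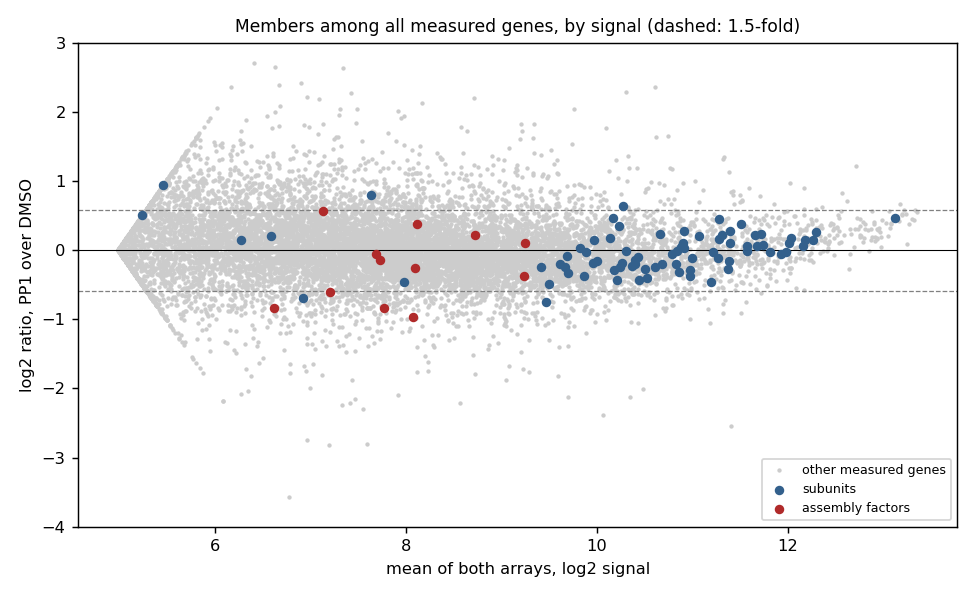
Log2 ratio of PP1 over DMSO against the mean log2 signal of both arrays for all 12133 measured genes (grey), with subunits in blue and assembly factors in red. Most of the 78 subunits crowd at the bright end close to 0, and the 12 assembly factors lie at intermediate signals, with 4 of them under the lower dashed line.

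Among the assembly factors of complex I, Ndufaf4 had the lowest ratio. Its signal was 377 with DMSO and 193 with PP1, which is 1.95-fold lower, and its other probe set went the same way (175 and 102, log2 ratio -0.78). Ndufaf4 binds assembly intermediates of complex I. Ndufaf6, a member of the same early assembly machinery, had a signal of 132 with DMSO and 73.5 with PP1, or 1.79-fold lower, on 1 probe set. Ndufaf7, a methyltransferase of the mitochondrial matrix, went from 182 to 120 (1.52-fold lower), on 1 probe set, which is marked as shared. All 3 were lower on the PP1 array, Ndufaf7 only just past the threshold.

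The other complex I factors went both ways and stayed within 1.5-fold. Ndufaf8, a partner of Ndufaf5, had signals of 687 with DMSO and 531 with PP1 (log2 ratio -0.37), and its dimmer probe set gave 109 and 64.7 (-0.75). Ndufaf1, which acts in building the membrane arm, was at 298 and 248 (-0.26), and Ndufaf2, a chaperone of late assembly, at 223 and 202 (-0.14). Ndufaf3, which forms a pair with Ndufaf4 during assembly, was on the opposite side, with 243 and 316 (0.38). Ndufaf5, which hydroxylates the subunit Ndufs7, was highest, with 115 and 171 (0.57, or 1.48-fold higher), just inside the threshold. Ndufaf3 and Ndufaf4, partners in the cell, thus differed by more than 1 log2 unit in their ratios on these arrays.

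For complex II, Sdhaf1, which helps to place iron-sulphur clusters in Sdhb, had a signal of 293 with DMSO and 163 with PP1. This is 1.79-fold lower, on 1 probe set. The remaining factors were close to the bulk of genes. Sdhaf2, which is needed for attaching flavin to Sdha, was at 392 and 455 (0.22, and 0.27 by its other probe set). Sdhaf3 was at 210 and 201 (-0.06) and Sdhaf4 at 586 and 631 (0.11). Each of the 3 assembly factors with more than 1 usable probe set, that is one above the floor on each array (Ndufaf4, Ndufaf8 and Sdhaf2) had them on the same side, against 15 of 46 members and 2347 of 4745 genes overall. The assembly factors had a median DMSO signal of 268. Of 1785 genes with a mean signal between 189 and 308, the interquartile range of the assembly factors, 7.62% were 1.5-fold or more lower, beside the 4 of 12 here.

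**Figure D3:**
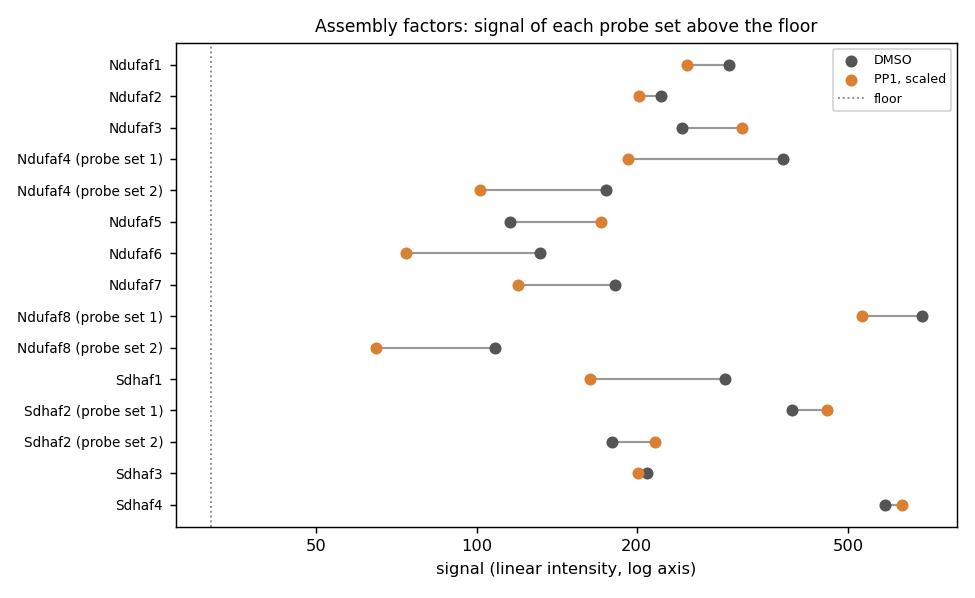
Signal on a log axis for each assembly factor probe set above the floor, with DMSO in grey and scaled PP1 in orange joined by a line, and the floor dotted. Both probe sets of Ndufaf4 and of Ndufaf8 are lower with PP1 and both of Sdhaf2 are higher, while Ndufaf3 and Ndufaf5 lie on the higher side.

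Promoter sequences of Ndufaf4, Sdhaf1 and Ndufaf7, which were lower, are shown beside that of Ndufaf5, the highest. No promoter of Ndufaf6 was among the sequences used, and that of Ndufaf3 is not shown. Each is given 5′ to 3′ on the gene's strand, from 250 bases before the annotated start to 30 from it, as RefSeq has it on GRCm38.p6. Capitals mark exact matches, on either strand, to the palindromic NRF1 site (10 letters, the capitals within Ndufaf4), the GABPA (ETS) site CCGGAAG, the E-box CACGTG, the YY1 site AAGATGGC or the CCAAT box CCAAT. NRF1 and GABPA are transcription factors known for acting on many nuclear genes of the respiratory chain. The windows are chr4:24897833-24898112 (+) for Ndufaf4, chr7:30322346-30322625 (-) for Sdhaf1, chr17:78936885-78937164 (+) for Ndufaf7 and chr2:140170396-140170675 (+) for Ndufaf5.
Ndufaf4: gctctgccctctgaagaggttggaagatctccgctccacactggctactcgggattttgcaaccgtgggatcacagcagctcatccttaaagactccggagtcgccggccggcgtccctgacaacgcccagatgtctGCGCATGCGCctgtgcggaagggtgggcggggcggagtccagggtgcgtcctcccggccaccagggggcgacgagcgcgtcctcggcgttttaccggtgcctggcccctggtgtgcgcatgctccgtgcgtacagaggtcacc
Sdhaf1: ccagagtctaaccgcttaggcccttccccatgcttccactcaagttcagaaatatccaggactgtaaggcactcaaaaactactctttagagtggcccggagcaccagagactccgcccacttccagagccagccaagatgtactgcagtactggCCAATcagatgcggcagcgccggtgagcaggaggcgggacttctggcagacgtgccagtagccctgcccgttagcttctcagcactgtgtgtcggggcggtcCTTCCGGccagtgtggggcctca
Ndufaf7: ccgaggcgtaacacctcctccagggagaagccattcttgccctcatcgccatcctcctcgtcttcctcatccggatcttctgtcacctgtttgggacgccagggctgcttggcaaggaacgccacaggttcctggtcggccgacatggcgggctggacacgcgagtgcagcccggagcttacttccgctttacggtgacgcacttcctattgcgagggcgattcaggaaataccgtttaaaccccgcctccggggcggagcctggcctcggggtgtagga
Ndufaf5: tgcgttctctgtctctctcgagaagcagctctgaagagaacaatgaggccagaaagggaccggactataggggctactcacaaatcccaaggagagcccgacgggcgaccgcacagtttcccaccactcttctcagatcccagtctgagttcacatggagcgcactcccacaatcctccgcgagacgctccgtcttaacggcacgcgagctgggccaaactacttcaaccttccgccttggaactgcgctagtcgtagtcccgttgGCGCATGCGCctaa
The NRF1 site was in the promoter of Ndufaf4, starting 113 bases before the start, and in that of Ndufaf5, starting at base 17 after it. Thus the lowest and the highest complex I factor both hold it. Sdhaf1 had a CCAAT box starting 95 bases before the start and a GABPA site on the other strand at base 8 after it, and Ndufaf7 had no match to these letters in this window.

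Promoters of 300 bases (250 before and 50 from the start) were found for 78 of the 94 members, 83 promoters in all. The NRF1 site was present in 6 of them (7.23%), against 0.971% of all 32851 promoters in the table. Besides Ndufaf4 and Ndufaf5, it occurred at Atp5k, Cox6a1, Uqcrc1 and Atp5g2, whose log2 ratios were -0.28, 0.15, 0.36 and 0.10. The GABPA site was found in 22 of the 83 (26.5%), against 8.86% of all promoters, with 5 of the 11 assembly factor promoters among them. The YY1 site was in 10 of the 83 against 2.75%, the E-box in 7 (8.43%) against 7.15%, and the CCAAT box in 34 (41.0%) against 37.4%. Genes with an NRF1 site in the window thus lay on both sides of 0. A match of letters is a description and not a measured binding site.

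In complex I, 22 of 33 measured subunit genes had a ratio below 0, against 48.9% of all genes and 61.9% of genes of like signal. The 6 measured core subunits, the part conserved from bacteria, had a median of -0.22, and the 27 accessory subunits one of -0.14. The lowest was Ndufv1, which binds NADH and flavin, with a signal of 917 with DMSO and 547 with PP1 (1.67-fold lower). A second probe set went the same way (781 and 503, -0.63), but the remaining one did not (580 and 678, 0.23). Its neighbour in the NADH-binding arm, Ndufv2, was at 1833 and 1978 (0.11) by its brightest probe set and at -0.41 and -0.66 by the others. The direction of both therefore depended on the probe set.

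Of the other core subunits, Ndufs8 was at 2906 with DMSO and 2400 with PP1 (-0.28). Its 6 probe sets ran from -0.47 to 0.59, the highest of them dim (85.5 and 129). Ndufs1 was at 742 and 626 (-0.25), and Ndufs7 at 1058 and 928 (-0.19, or -0.59 by its other probe set). Ndufs3 was on the higher side, with 1053 and 1194 (0.18). None of these 4 reached 1.5-fold by its representative probe set.

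Among the accessory subunits, Ndufb1 in the membrane arm was the lowest, from a dim signal of 154 with DMSO to 95.7 with PP1 (1.61-fold lower, 1 probe set). Ndufb10 followed, at 858 and 613 (-0.49), and Ndufa12 at 2286 and 1757 (-0.38, its usable probe sets ranging up to 0.10). Ndufc1 was at 1079 and 965 by its representative probe set (-0.16) but at 1125 and 586 by the other (-0.94). Ndufab1, the mitochondrial acyl carrier protein that also serves fatty acid synthesis, was at 2064 and 1661 (-0.31), whereas a dim probe set gave 51.5 and 115 (1.16). At the other end stood Ndufa6 with 979 and 1349 (0.46), Ndufv3 with 2125 and 2893 (0.45) and Ndufb9 with 2450 and 2962 (0.27, but -0.26 by another probe set). Ndufa13, also known as the cell death regulator GRIM-19, was the brightest gene of the complex and close to 0 (3325 and 3498, 0.07). The 10 measured Ndufb genes had a median of -0.14 and the 12 Ndufa genes one of -0.15, so neither arm of the naming stood off from the other.

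Complex II, which is also an enzyme of the TCA cycle, was level for 3 of its 4 genes. The catalytic subunit Sdha was at 1268 with DMSO and 1263 with PP1 (-0.01), the iron-sulphur subunit Sdhb at 1837 and 1820 (-0.01), and the membrane anchor Sdhd at 896 and 917 (0.03). The other anchor, Sdhc, was at 993 and 1548 (1.56-fold higher), but its second probe set went from 401 to 291 (-0.46). Those 2 values lie 1.10 log2 units apart, so the direction of Sdhc depended on the probe set.

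In complex III, 6 of the 8 genes had a ratio below 0, beside 68.4% of genes of like signal. Lowest were the small subunits Uqcrq (1682 and 1277, -0.40) and Uqcr11 (1061 and 819, -0.37), followed by the Rieske iron-sulphur protein Uqcrfs1 (1314 and 1110.5, -0.24). A dim probe set of Uqcrq lay on the other side (25.5 with DMSO, under the floor, and 37.3 with PP1, 0.23). The higher pair was the core protein Uqcrc1 (1059 and 1356, 0.36) and Uqcrb, which takes part in ubiquinone binding. Uqcrb was the brightest gene of the complex (7556 with DMSO, 10411 with PP1, 0.46), and its other probe set gave 1813 and 1669 (-0.12). The core proteins Uqcrc1 and Uqcrc2 (-0.18), which form 1 structure in the enzyme, lay on opposite sides of 0. For each of the 4 genes of this complex with more than 1 usable probe set, they lay on both sides of 0.

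Complex IV is unusual in having paired isoforms, of which one is made in most tissues and the other mainly in muscle, testis or lung. Of its 16 measured genes, 11 had a ratio above 0, against 51.1% of all genes. Counted by probe set, 14 of the 26 usable on each array lay below 0. Of the 8 genes with more than 1 usable probe set, 5 had them on both sides of 0. The ubiquitous forms were level. Cox4i1 was at 4086 with DMSO and 4001 with PP1 (-0.03), and Cox5a at 3964 and 3829 (-0.05). Cox6b1 was at 4469 and 4663 (0.06, or -0.06 by its other probe set), and Cox6c at 3184 and 3336 (0.07). Cox6a1, the brightest gene of the complex, was at 4673 and 5183 (0.15, or -0.19 by its other probe set). Cox7a2 was at 4403 and 4898 (0.15, or -0.05 by its other probe set). Cox8a was highest among these, with 1744 and 2119 (0.28, and 0.48 by another probe set). Ndufa4 was at 1590 and 1320 (-0.27), and Cox7a2l, a factor of respiratory supercomplexes, at 1493 and 1762 (0.24, its 3 probe sets from -0.27 up). None of the 11 genes other than the tissue-restricted forms reached 1.5-fold, and their median was 0.07.

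The tissue-restricted forms had signals nearer the floor, and the 2 subunits of this complex past 1.5-fold were among them. Cox6b2, a testis form, was at 151 with DMSO and 261 with PP1 (1.73-fold higher), and its partner Cox6b1 was level. Cox4i2, the lung and hypoxia form, was under the floor with DMSO (19.1) and at 60.7 with PP1, a difference of at least 1.91-fold upward. The muscle form Cox6a2 was at 73.4 and 81.0 (0.14) and the testis form Cox8c at 89.8 and 103 (0.20). Ndufa4l2, a hypoxia-induced paralog of Ndufa4, was on the other side (296 and 215, -0.46). Cox7a1 and Cox8b, the muscle forms of their subunits, and Cox7b2, a testis form, were under the floor on both arrays. Skeletal muscle markers were higher in 9 of 11 measured genes, 5 of them by 1.5-fold or more, against 51.1% and 10.6% of all genes. Those 5 (Myog, Myod1, Des, Actn2 and Tnnt3) had DMSO signals of 23.7 to 47.1, near or under the floor. The brightest markers, Myl1 (797 and 636) and Acta1 (521 and 426), were lower. The summed signals were 2185 with DMSO and 2312 with PP1. Ckm, the muscle creatine kinase, was under the floor on both arrays. The part of these cells in the isoform values was not tested.

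Cox7c, a ubiquitous subunit, was represented here only by a probe set close to the floor (31.2 with DMSO, under it, and 44.9 with PP1) and one under it, which gives a bound of 1.42-fold and says little about its transcript. Cox6b2, Cox4i2 and Cox7c each rest on 1 probe set above the floor.

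**Figure D4:**
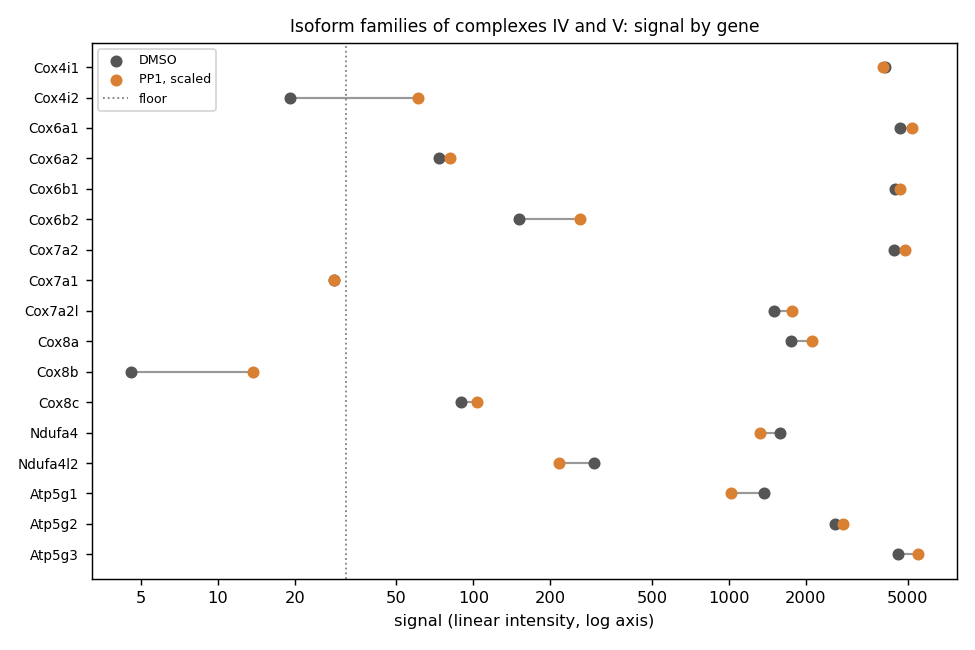
Signal on a log axis for isoform families of complexes IV and V, 1 line per gene, with DMSO in grey, scaled PP1 in orange and the floor dotted. The points of the ubiquitous cytochrome c oxidase forms almost coincide, and Cox4i2 and Cox6b2 are further right with PP1. Signals of different genes come from different probes and are not compared with each other.

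All 17 genes of complex V lay within 1.5-fold. In the catalytic F1 part, the alpha and beta subunits that form the active sites were at 2987 with DMSO and 3492 with PP1 (Atp5a1, 0.23, but 1773 and 1526, -0.22, by another probe set) and at 3928 and 4442 (Atp5b, 0.18). The gamma subunit of the rotating stalk, Atp5c1, was lowest in the complex, at 2752 and 1999 (-0.46), with a dim probe set at -0.01. The delta and epsilon subunits were at -0.12 (Atp5d, but 0.22 by its other probe set) and 0.14 (Atp5e).

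In the membrane part, 3 genes encode the same mature c subunit of the proton-driven ring, and their ratios differed. Atp5g1 was at 1367 with DMSO and 1019 with PP1 (-0.42), Atp5g2 at 2601 and 2788 (0.10), and Atp5g3, the brightest gene of the complex, at 4581 and 5489 (0.26). Atp5g1 and Atp5g3 thus lay on opposite sides of 0, each within the 1.5-fold lines. Atp5md, a small membrane subunit, was also on the lower side (1606 and 1194, -0.43), as was Atp5k (2220 and 1826, -0.28, all 3 probe sets from -0.61 to -0.21). Of the peripheral stalk, which holds the F1 part still, Atp5o was highest (2562 and 3320, 0.37, or -0.09 by its other probe set). The stalk subunits Atp5pb (0.11, or -0.16 by its other probe set), Atp5j (0.06) and Atp5h (-0.01) were level.

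Across complexes, the probe sets of a gene often disagreed in direction, as small ratios allow. Of the 46 members with more than 1 usable probe set, 15 (32.6%) showed the same direction in each, against 49.5% of all such genes. Counted by probe set, 6 of the 153 member probe sets usable on each array were 1.5-fold or more higher, against 13.3% of all named probe sets. At that size 14 of the 153 were lower, against 7.26% of all named probe sets. Of the 14, 6 belonged to assembly factors and 7 to complex I. The ratio of 3′ to 5′ control signals, a sign of RNA quality, differed between PP1 and DMSO by -0.51 (log2) for Gapdh, -0.34 for Pcx and 0.14 for Actb, and its part in these disagreements was not tested.

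Other mitochondrial genes, from 12 lists that exclude the members, were likewise mostly level. Of 109 measured genes, 69 had a ratio below 0, against 48.9% of all genes, and the median was -0.07. By 1.5-fold or more, 7 were higher and 7 lower (6.42% each way), against 10.6% and 7.38% of all genes. Cytochrome c1 (Cyc1), the subunit of complex III that lies outside the symbol rule, was at 1727 with DMSO and 1274 with PP1 (-0.44), and cytochrome c (Cycs) at 3973 and 3700 (-0.10). The remaining assembly factors had medians of -0.01 for complex I (9 genes), -0.13 for complex III (5 genes), -0.08 for complex IV (18 genes) and -0.08 for complex V (4 genes). Among these the insertase Cox18 was lowest (744 and 433, -0.78) and Tmem126b highest (73.3 and 110, 0.59). Cox18 was the only one of them lower by 1.5-fold or more, against 7.38% of all genes, beside the 4 of 12 among Ndufaf and Sdhaf genes. Tmem126b was the only one higher at that size, against 10.6% of all genes.

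The enzymes and carriers around the chain were level, with medians of -0.04 for the TCA cycle (16 genes), -0.07 for coenzyme Q synthesis (12 genes) and 0.05 for carriers and channels (12 genes). The exceptions were single genes. Idh2, the NADP-dependent isocitrate dehydrogenase, was at 335 with DMSO and 1022 with PP1 (3.05-fold higher, 1 probe set). The subunits of the NAD-dependent form stayed within 1.5-fold. Idh3a was at -0.39, Idh3b at 0.02 and Idh3g at 0.12, the latter 2 with another probe set below 0 (-0.24 and -0.33). The coenzyme Q-binding proteins Coq10a (75.6 and 154, 1.03) and Coq10b (713 and 407, -0.81) lay on opposite sides. The 1 mitochondrially encoded gene with a named probe set, ND5 of complex I, was at 4401 and 10238 (2.33-fold higher, 1 probe set), unlike all measured nuclear subunits of its complex, whose highest ratio was 0.46.

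Of the genes that keep and read mitochondrial DNA, 8 of 11 had a ratio below 0 (median -0.24), against 48.9% of all genes. They included the single-stranded DNA-binding protein Ssbp1 (1434 with DMSO and 821 with PP1, -0.80, its 3 probe sets up to -0.22) and Top1mt (100 and 63.8, -0.65). The packaging factor Tfam was at 431 and 290 (-0.57, or -0.27 by its other probe set). Mgme1, from a dim signal, was higher (38.7 and 93.0, 1.27). Of 10 nuclear regulators, Myc (493 and 244, -1.02) and the coactivator Pprc1 (500 and 257, -0.96) were lowest. Ppargc1a (PGC-1alpha), the best known coactivator of mitochondrial genes, was under the floor with DMSO (28.4) and at 70.2 with PP1, or at least 2.21-fold higher. Its other probe set above the floor gave a smaller log2 ratio of 0.59. Adipocyte markers, of which 4 of 7 were measured, were higher in each of the 4 (summed 3738 and 7090), against 51.1% of all genes. Ucp1 and Cidea were under the floor, and the part of adipocytes was not tested. Nrf1 (-0.18) and Gabpa (-0.12) were level. Mitochondrial antioxidant genes had a median of -0.24 over 6 genes, from Txn2 (963 and 629, -0.62) to Txnrd2, which was under the floor with DMSO (at least 2.04-fold higher). Both depended on the probe set, with Txn2 reaching 0.34 and Txnrd2 going down to 0.14 by others.

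**Figure D5:**
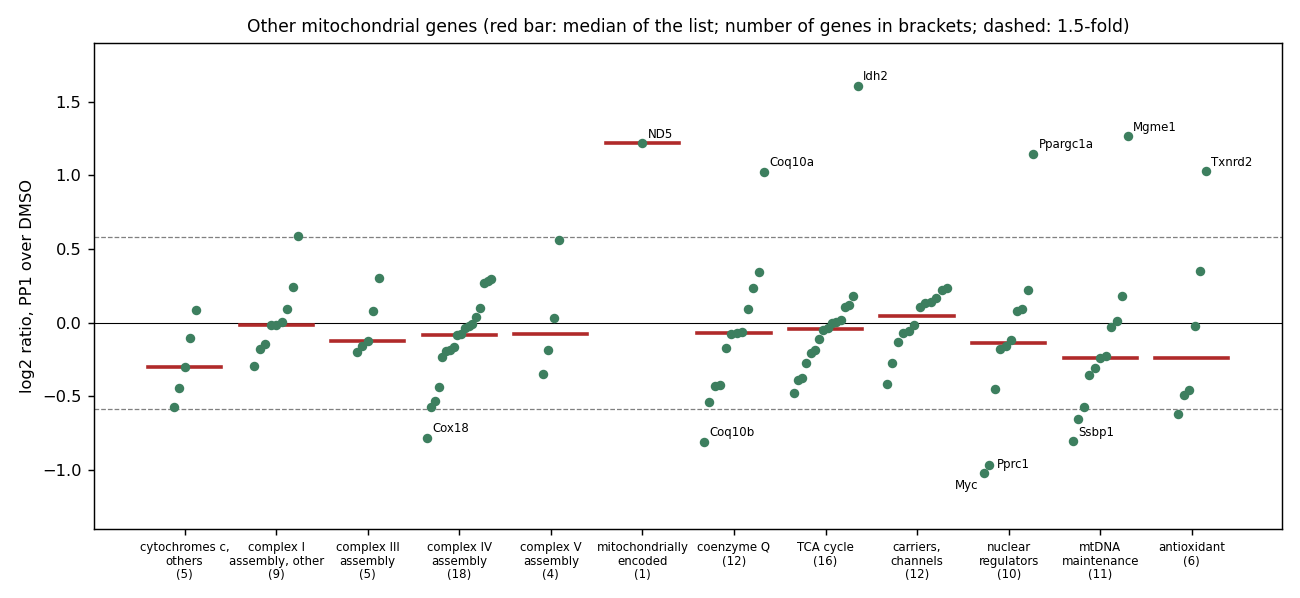
Log2 ratio of PP1 over DMSO for the measured genes of 12 lists of other mitochondrial genes, 1 point per gene, with a red bar at the median of each list. Ppargc1a and Txnrd2 are lower bounds, with the DMSO signal at the floor. Most points lie between the dashed 1.5-fold lines, and genes beyond 0.75 in either direction are named, among them Idh2 at 1.61 and Myc at -1.02.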

How the data were processed

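Expression was measured on 2 Affymetrix mouse arrays, 1 per condition. The deposited values are linear intensity signals per probe set, made with MAS5 per the submitters' processing notes, with version and scaling target not given in the sources used here. Of 45037 non-control probe sets, 34945 had exactly 1 gene in the platform annotation, and their symbols were updated by gene identifier through RefSeq (GRCm38.p6), which matched 34741. No coordinates of probe sets are given. The PP1 array was scaled from a trimmed mean of 94.1 to the 158.1 of the DMSO array. Ratios on the log2 scale, the floor and the probe set rule were computed as stated in the results. A difference counts from 1.5-fold, and 2-fold is given beside it. Having 1 array per condition limits the precision.

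In each complex, the 3 highest and 3 lowest genes, those past 1.5-fold and the brightest are named. So are the isoform families and genes whose probe sets differ by over 1 log2 unit. Of the companion lists, only some of the highest and lowest genes are named. Other names, such as those of promoters, were added for context after values were seen. Members, gene lists and markers were chosen with earlier results of these data known. The steps were tested on simulated data. Alternatives were other scalings, floors, probe set rules, assignments of Ndufa4 and isoforms. Python 3.11.15, pandas 2.3.3, statsmodels 0.14.6 and matplotlib 3.10.9 were used.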

Additional observations from a re-analysis of the deposited data

Results flagged for a closer look

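Probe sets annotated to several genes enter no gene above. Of 10 such probe sets that include a member's name, 8 lay above the floor, and 2 of these differed by 1.5-fold or more. A probe set shared by Ndufb4 and its near-identical copies Ndufb4b and Ndufb4c had a signal of 1336 with DMSO and 792 with PP1 (log2 ratio -0.76). A second probe set for the same 3 genes gave 2188 and 1697 (-0.37), and the only probe set of Ndufb4 alone was under the floor. A dim probe set shared by Ndufa11 and Ndufa11b had 32.2 with DMSO and 57.0 with PP1 (0.82), and a bright one for the same genes gave 1677 and 1515 (-0.15). With 1 array per condition, neither difference has a replicate check.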

How the results depend on the processing

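No paired analysis was possible because each group holds 1 array. Medians here are relative to the median of all genes under the same setting. They moved by 0.1 or more for complex III without shared probe sets (-0.0493), for complex IV under loess (0.0116), the median over probe sets (-0.0310) and probe sets in place of genes (-0.0594), for complex V under the latter 2 (-0.0683 and -0.0492), and for the assembly factors with a floor at the 75th percentile (-0.10). Counts of subunits 1.5-fold or more higher became 0 as deposited, 0 with bacterial controls and 6 by probe set. Those lower became 58 as deposited, 66 with bacterial controls, 7 with median centring, 8 by probe set and 1 with the higher floor. Of the assembly factors, 9 were lower as deposited, 10 with bacterial controls and 2 with the higher floor. Members at 2-fold or more, 0 above, numbered 22 as deposited, 35 with bacterial controls, 3 with median centring, and 1 each with no floor, without shared probe sets and by probe set. Scaling moved the median of all genes to -0.71 as deposited, -0.79 with bacterial controls and -0.16 with median centring, and the higher floor leaves dim genes with a smaller range. Otherwise 88 medians and counts were within these limits. Ndufv1 reversed without shared probe sets (0.20), and 7 other values of named genes moved by more than the SD between probe sets. Without shared probe sets these were Ndufab1 (1.14), Uqcrq (0.21) and Atp5c1 (-0.04). The cause was not tested.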
